A study of Mus musculus with 6 samples.

Results

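The alpha globin locus on chromosome 11 and the beta globin locus on chromosome 7 were examined for methylated DNA in 3 kinds of mouse blood cell. Each locus was a fixed mm9 window of 160 kb. The alpha window ran from 32.05 to 32.21 Mb and took in the upstream enhancers, and the beta window ran from 110.94 to 111.10 Mb and took in the control region. The members were the deposited peaks sharing at least 1 base with a window. They numbered 28 of 164274 peaks over the 3 lists, with 20 in the alpha window and 8 in the beta window. The 7 genes at issue are Hba-a1, Hba-a2 and Hba-x of the alpha locus and Hbb-b1, Hbb-b2, Hbb-bh1 and Hbb-y of the beta locus.

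Methylated DNA was pulled down with MBD2, a protein that binds methylated CpG sites, from C57BL/6 females, and the bound fraction was sequenced. HSC (stem cells) were bone marrow cells of adult mice, free of lineage markers and carrying both Sca-1 and c-kit. CMP (common myeloid progenitors) also came from marrow, without lineage markers, and carried c-kit without Sca-1. How the ERY (erythroblasts, the nucleated red cell precursors) were collected, and at what age of the mice, the sources used here do not say. Each cell type had 1 enriched library, so nothing that differs between them can be set against the spread of replicates, and no test was made. The 3 supernatant libraries are not analysed here. The lists hold positions without heights or read numbers, and the depth of the libraries is unknown. The lists held 85797 (HSC), 50638 (CMP) and 27839 (ERY) peaks, so a later list can lack a peak through its own sensitivity, and this was not tested. The files hold no expression values, so the labelled cell types could not be checked against marker genes.

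Hemoglobin carries oxygen in red cells and is built from alpha-like and beta-like globin chains. Hba-x (zeta) and, among the beta-like genes, Hbb-y and Hbb-bh1 serve the embryo, while Hba-a1, Hba-a2 and the adult beta genes take over in fetal and adult red cells. The adult genes are silent in stem cells and among the most active genes of erythroblasts. Distant enhancers drive them: a group upstream of the alpha genes that lies partly in introns of the neighbour Nprl3, and the locus control region upstream of the beta genes. Methylation of CpG-rich control DNA commonly goes with silence. Promoters with few CpG sites offer a methyl-CpG pulldown little to hold.

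In the order of the RefSeq gene table (GRCm38.p6), the alpha genes follow Il9r, Snrnp25, Rhbdf1, Mpg and Nprl3. They run Hba-x, Hba-a1, Hbq1b, Hba-a2 and Hbq1a (the Hbq1 genes encode theta globins), before Sh3pxd2b. The beta genes run Hbb-bt, Hbb-bs, Hbb-bh2, Hbb-bh1 and Hbb-y between olfactory receptor genes, Olfr67 on one side and Olfr66 on the other. Hbb-bs and Hbb-bt are the adult beta genes of the C57BL/6 haplotype. Hbb-b1 and Hbb-b2 are the adult genes of another haplotype, and the table sets them apart from this row. The table belongs to a later assembly than the peaks. No peak was therefore assigned to a gene, enhancer or promoter, and the positions below are given on mm9 alone.

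Promoter sequences show how much CpG these genes hold. RefSeq (GRCm38.p6) had a promoter for 4 of the 7 members, Hba-a1, Hba-a2, Hba-x and Hbb-y, and for the neighbours Hbb-bs, Hbb-bt, Hbb-bh2, Hbq1b and Hbq1a. Of these, 4 follow, chosen to set an adult and an embryonic gene of each locus side by side. Each is the 250 bases before the start site, 5′ to 3′ on the strand of the gene, with CpG sites in capitals. The alpha genes are on the plus strand and the beta genes on the minus strand.
Hba-a1: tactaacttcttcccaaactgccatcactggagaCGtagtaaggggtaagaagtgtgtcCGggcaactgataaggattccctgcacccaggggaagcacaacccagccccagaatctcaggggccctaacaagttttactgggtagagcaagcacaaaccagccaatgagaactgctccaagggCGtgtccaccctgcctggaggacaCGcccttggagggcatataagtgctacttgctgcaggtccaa
Hba-x: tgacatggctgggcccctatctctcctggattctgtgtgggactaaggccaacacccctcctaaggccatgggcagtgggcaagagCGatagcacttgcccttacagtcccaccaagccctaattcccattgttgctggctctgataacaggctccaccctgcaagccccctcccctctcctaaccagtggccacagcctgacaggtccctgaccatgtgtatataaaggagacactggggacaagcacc
Hbb-bs: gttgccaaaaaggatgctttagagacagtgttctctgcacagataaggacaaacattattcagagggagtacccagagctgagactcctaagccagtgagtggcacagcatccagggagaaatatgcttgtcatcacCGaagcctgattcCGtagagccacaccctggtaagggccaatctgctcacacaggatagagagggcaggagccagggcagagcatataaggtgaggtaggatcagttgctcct
Hbb-y: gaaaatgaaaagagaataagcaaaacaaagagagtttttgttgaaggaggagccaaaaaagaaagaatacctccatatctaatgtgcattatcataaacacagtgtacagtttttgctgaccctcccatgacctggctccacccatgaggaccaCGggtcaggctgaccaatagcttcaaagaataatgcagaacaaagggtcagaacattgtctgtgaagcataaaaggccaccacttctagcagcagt

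The alpha and beta globin promoters held fewer CpG sites than the median promoter. Hba-a1 and Hba-a2 had 4 each, Hba-x 1, Hbb-y 1, Hbb-bs 2, Hbb-bt 0 and Hbb-bh2 3. Over 32851 RefSeq promoters the median was 6 (interquartile range 2 to 16), and 44.4% held 4 or fewer, 18.8% held 1 or fewer and 7.87% held 0. The theta globin genes lay higher, with 10 sites in front of Hbq1b and 7 in front of Hbq1a. The counts of Hba-a1, Hba-a2 and Hbb-bh2 thus lay inside the interquartile range, and that of Hbb-bs at its lower end. Those of Hba-x, Hbb-y and Hbb-bt lay below it. G and C made up 54.0% of the Hba-a1, 57.2% of the Hba-x and 42.0% of the Hbb-y promoter, against a median of 52.4%. In Hba-a1 the 4 CpG sites stood 216, 191, 66 and 42 bases before the start site.

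**Figure D1:**
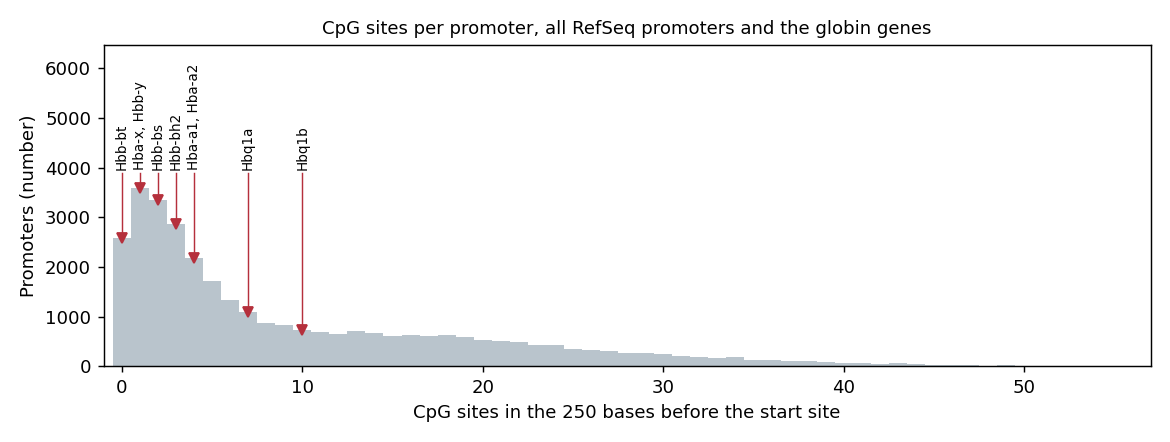
Number of RefSeq promoters (vertical axis) by CpG sites in the 250 bases before the start site (horizontal axis), with red marks at the globin genes. The alpha and beta globin genes sit between 0 and 4 sites, and Hbq1a and Hbq1b at 7 and 10.

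The adult alpha genes are near copies of each other, which bears on short reads. The promoters of Hba-a1 and Hba-a2 shared an unbroken run of 247 bases. Of the 215 stretches of 36 bases in the Hba-a1 promoter, 212 (98.6%) also occurred in that of Hba-a2. The libraries were read as 36 bp single-end reads used for unique placement, and a read inside such a stretch has at least 2 possible origins. Hbq1a and Hbq1b shared 70 of 215 stretches (32.6%). Hba-x, Hbb-y, Hbb-bs, Hbb-bt and Hbb-bh2 shared 0 with any other promoter of the table. Whether a peak is absent at the duplicated alpha promoters was not determined. Such an absence could not be told apart from reads that could not be placed.

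Short motifs were searched on both strands of the same 250 bases. CACCC, the core of the site of the erythroid factor KLF1, occurred 2 times in Hba-a1, Hba-a2 and Hba-x, 3 times in Hbb-bt and 1 time in Hbb-bs and Hbb-y. Hbb-bh2, Hbq1a and Hbq1b had 0, and 52.0% of all promoters held it. CCAAT, a common promoter box, occurred 3 times in Hbb-bt, 1 time in Hba-a1, Hba-a2, Hbb-bs, Hbb-y, Hbq1a and Hbq1b, and 0 times in Hba-x and Hbb-bh2. It was held by 33.8% of all promoters. AGATAA, a form of the GATA1 site, occurred 1 time in Hbb-bs and in Hbb-bh2 and in none of the other 7, against 9.99%. Other forms of the site were not searched, so these promoters cannot be said to lack it. The form TGATAA stands in the printed Hba-a1 and Hba-x sequences, and on the opposite strand in that of Hbb-y. TATAAA was found 28 bases before the start of Hba-x and of Hbb-bt and in none of the other 7, against 12.4%. CCGGAAG, an ETS-type site, was found in none of these 9 promoters, against 6.91%. In these promoters no match of a motif shared bases with a match of another, and a match is a description only.

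In the alpha window 9 methylated peaks were called in HSC cells, 7 in CMP cells and 4 in ERY cells. The bases under peaks were 11740, 8351 and 5474, so CMP covered 71.1% and ERY 46.6% of the HSC length. Over the whole lists, CMP covered 62.6% and ERY 33.0% of the HSC length. Merged over the 3 lists, the alpha peaks formed 9 regions, numbered here from the start of the window. All 9 held an HSC peak, 5 a CMP peak and 4 an ERY peak.

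**Figure D2:**
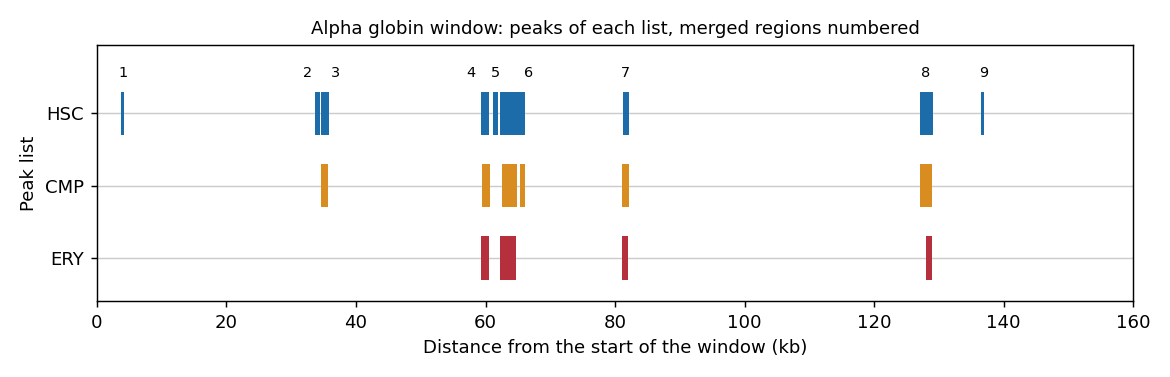
Peaks of the HSC, CMP and ERY lists (rows) along the alpha globin window, in kb from its start, drawn to scale with the 9 merged regions numbered. Regions 4, 6, 7 and 8 have a peak in each list, and 1, 2, 5 and 9 in HSC alone. In region 8 the CMP bar is 2 peaks 44 bp apart.

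Regions 4 to 6 formed a dense cluster, singled out after its values were seen. It spanned 6938 bp, 4.34% of the window, at chr11:32109231-32116168. HSC peaks covered 6098 of its bases, CMP peaks 4529 and ERY peaks 3657. That was 51.9%, 54.2% and 66.8% of all bases under peaks in the alpha window. More than 1 in 2 bases under peaks thus lay in this stretch in each list.

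Region 6 held the widest peak of either window. The HSC peak at chr11:32112207-32116168 was 3962 bp wide, and 0.0455% of HSC peaks were as wide or wider. In CMP the region held 2 peaks of 2426 and 841 bp with 387 bp between them. In ERY it held 1 peak of 2450 bp that ended 1417 bp short of the HSC peak. The part of region 6 toward the window's end was thus under peaks in HSC and CMP and not in ERY. The CMP peak of 841 bp shared no base with an ERY peak. Region 6 was nonetheless wide in each list. Of CMP peaks 0.476% were as wide as its 2426 bp peak or wider, and of ERY peaks 0.334% as its 2450 bp peak.

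Region 8 was also shorter in ERY, at its other end. The HSC peak at chr11:32177071-32179032 was 1962 bp wide, and 1.23% of HSC peaks were as wide. CMP had 2 peaks of 959 and 845 bp in its place, 44 bp apart. ERY had 1 peak of 907 bp, at chr11:32178066-32178972, which began 995 bp after the HSC peak and ended 60 bp before it. ERY covered 46.2% of the HSC bases here and 61.8% in region 6. In the 24935 regions with a peak in each list, the median ratio of ERY to HSC bases was 0.894 (interquartile range 0.731 to 1.09), so both regions lay below the lower quartile. Those regions were not matched for the width of the HSC peak, which is unusually large in both.

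Regions 4 and 7 were of like extent in the 3 lists. In region 4, at chr11:32109231-32110687, the HSC, CMP and ERY peaks were 1341, 1262 and 1207 bp wide. In region 7, at chr11:32131139-32132136, they were 944, 956 and 910 bp. The ratio of ERY to HSC bases was 0.900 and 0.964 in these regions.

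The other alpha regions lacked an ERY peak. Region 3, at chr11:32084563-32085765, had peaks of 1203 bp in HSC and 1062 bp in CMP. Regions 1, 2, 5 and 9 had a peak in HSC alone, of 397, 742, 795 and 394 bp. Region 2 lay 133 bp from region 3 and region 5 lay 236 bp from region 6, so these HSC-only peaks sat beside peaks that persisted into CMP. Region 9, at chr11:32186544-32186937, was the last peak before the window's end. The 4 HSC-only peaks were narrower than each of the 5 kept ones, which ran from 944 to 3962 bp. Over the HSC list the median width was 677 bp for peaks absent from both later lists and 809 bp for the others.

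By peak, 5 of 9 alpha peaks of HSC were kept in CMP, meaning that they shared at least 1 base with a CMP peak, against 57.1% of all HSC peaks. In ERY 4 of 9 were kept, against 30.9%. Of the 7 CMP peaks 5 were kept in ERY, against 50.7%, with the 959 bp peak of region 8 kept through 41 shared bases. All 7 CMP and all 4 ERY peaks overlapped an HSC peak, against 96.5% and 95.3%, and all 4 ERY peaks overlapped a CMP peak, against 92.5%. Exact 95% binomial intervals, which cover counting error only, ran from 21.2 to 86.3% for 5 of 9, from 13.7 to 78.8% for 4 of 9 and from 29.0 to 96.3% for 5 of 7. Each interval held the share of the whole list. By region, 4 of 9 were in HSC alone (40.7% of all regions), 1 in HSC and CMP (26.4%) and 4 in all lists (28.5%). No region of either window was without an HSC peak. The classes just named all hold an HSC peak and take in most regions of the whole lists, so this is not particular to the loci.

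Long stretches of the alpha window held no peak. From 82.1 to 127 kb after the window's start, between regions 7 and 8, a stretch of 44.9 kb had no peak in any list. Of all stretches between neighbouring merged regions, 17.0% were as long or longer. From region 8 to the right, the next HSC peak was 7.51 kb away, the next CMP peak 77.7 kb and the next ERY peak 94.8 kb. Among the gaps of each list, 58.2% (HSC), 18.0% (CMP) and 25.4% (ERY) were as long or longer. Past region 8 the CMP and ERY lists thus had no peak up to the window's end, nor in the first 46.7 and 63.7 kb beyond it. At the other end, an HSC peak of 562 bp ended 9 bp before the window and was not counted, while the first member lay 3.79 kb inside it.

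The beta window held 3 HSC, 3 CMP and 2 ERY peaks in 3 merged regions. The bases under peaks were 2402, 2339 and 1553, which put CMP at 97.4% and ERY at 64.7% of HSC. Peak widths were ordinary, from 678 to 927 bp, against list medians of 748, 818 and 788 bp.

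**Figure D3:**
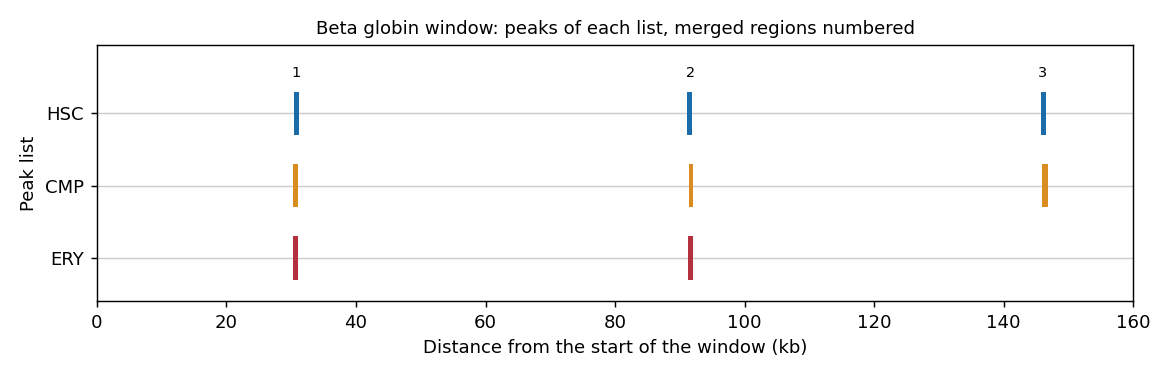
Peaks of the HSC, CMP and ERY lists (rows) along the beta globin window, in kb from its start, drawn to scale with the 3 merged regions numbered. Regions 1 and 2 have a peak in each list, and region 3 has none in ERY.

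Beta region 1, at chr7:110970283-110971144, had HSC, CMP and ERY peaks of 752, 734 and 706 bp. Region 2, at chr7:111031064-111032056, had peaks of 751, 678 and 847 bp in the same order. It was the single region of the 2 windows in which ERY covered more bases than HSC, with a ratio of 1.13, just above the upper quartile of 1.09 over all shared regions. Its CMP and ERY peaks ended 225 and 242 bp beyond the HSC peak. CMP peaks lay over 83.0%, 60.3% and 80.8% of the HSC peaks of regions 1, 2 and 3. Region 3, at chr7:111085705-111086804, had peaks of 899 bp in HSC and 927 bp in CMP and none in ERY.

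All 3 beta peaks of HSC were kept in CMP, against 57.1% of all HSC peaks, and 2 of 3 in ERY, against 30.9%. Of the CMP peaks 2 of 3 were kept in ERY, against 50.7%. The intervals ran from 29.2 to 100% for 3 of 3 and from 9.43 to 99.2% for 2 of 3, since each rests on 3 peaks, and held the shares of the whole lists. With the wider 50% of each list, 33.3% of the beta HSC peaks were kept in CMP. That setting left 1 CMP peak in the beta window, so the share falls by construction. It has no whole-list share beside it here. The 3 CMP and 2 ERY peaks of the beta window each overlapped an HSC peak, as did 96.5% and 95.3% of all peaks of those lists. By region, 0 of 3 were in HSC alone (40.7% of all regions), 1 of 3 in HSC and CMP (26.4%) and 2 of 3 in all lists (28.5%), too few to set apart from those shares.

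Long stretches also lay between the beta peaks. Stretches of 59.9 and 53.6 kb without a peak in any list separated regions 1 and 2 and regions 2 and 3, and 12.4% and 14.1% of all such stretches were as long or longer. On the left, 202 kb without any peak ended at region 1, and 1.75% were as long. This stretch began 172 kb outside the window. In ERY alone it was 333 kb long, since the nearest ERY peak lay 302 kb left of the window, and 6.26% of ERY gaps were as long or longer. On the right a peak stood 15.3 kb outside the window in each list.

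**Figure D4:**
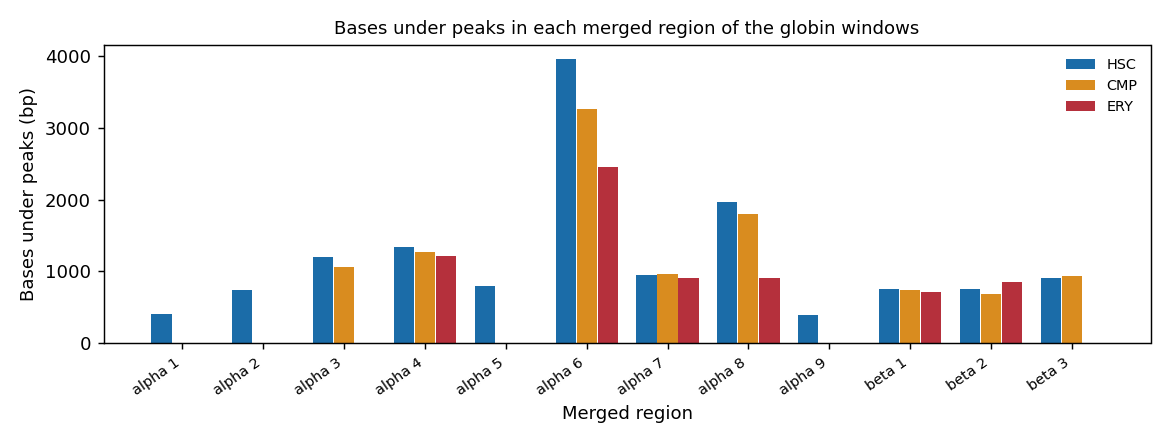
Bases under peaks (vertical axis) in each merged region of the alpha and beta windows (horizontal axis), 1 bar per list and no bar where a list has no peak. ERY has 2450 bp in alpha region 6 and 907 bp in alpha region 8, against 3962 and 1962 bp in HSC, and is within 1.13 times of HSC in alpha regions 4 and 7 and beta regions 1 and 2.

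The windows were then set against 500 kb on each side. In HSC the alpha window had 9 peaks and its flanks 36, or 5.62 against 3.60 per 100 kb, a ratio of 1.56 (exact 95% interval 0.662 to 3.31). In CMP it had 7 and the flanks 20, a ratio of 2.19 (0.782 to 5.39). In ERY it had 4 and the flanks 19, a ratio of 1.32 (0.326 to 3.96). The alpha ratio was above 1 in each list and its interval included 1 in each, so the excess was not detectable from these counts. In bases under peaks the alpha window stood at 2.68 (HSC), 3.09 (CMP) and 2.37 (ERY) times the level of its flanks. With the wider 50% of each list the ratio of peak densities was 4.86 in CMP and 5.0 in ERY.

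The flanks of the alpha window were unequal. The left flank, toward the start of the chromosome, had 10 HSC, 6 CMP and 8 ERY peaks. The right flank had 26, 14 and 11. Against the right flank alone the HSC density was nearly level, at 5.62 and 5.20 peaks per 100 kb.

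Peak density in the beta window was near that of its flanks in HSC and CMP. In HSC it had 3 peaks and the flanks 20, a ratio of 0.937 (0.178 to 3.16). In CMP it had 3 and the flanks 17, a ratio of 1.10 (0.207 to 3.81). In ERY it had 2 and the flanks 7, a ratio of 1.79 (0.181 to 9.38), with 5 of the 7 on the left. With flanks of 250 kb, which held 0.200 ERY peaks per 100 kb, that ratio was 6.25. It rests on the same 2 window peaks and lies inside the interval of 0.181 to 9.38. In bases the ratios were 0.972, 1.27 and 1.77. Kept shares in the beta flanks were 17 of 20 from HSC to CMP and 7 of 20 from HSC to ERY. In the alpha flanks they were 18 of 36 and 16 of 36. Over the whole lists they were 57.1% and 30.9%. The exact interval of the beta flanks from HSC to CMP, 62.1 to 96.8%, lay above the whole-list share. The other intervals held it, at 15.4 to 59.2% for beta and 32.9 to 67.1% and 27.9 to 61.9% for alpha. A high kept share from HSC to CMP was thus not particular to the beta window. The intervals treat peaks as independent, and the cause was not tested.

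**Figure D5:**
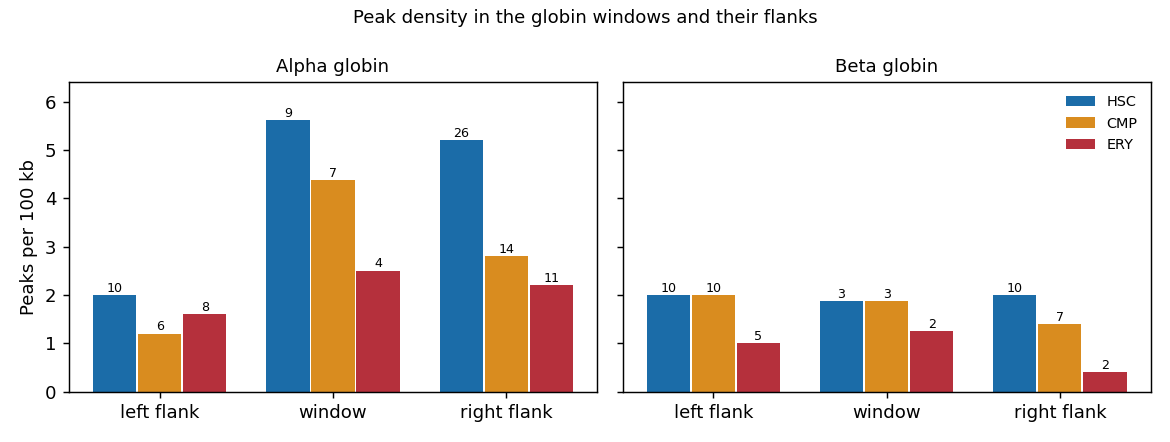
Peaks per 100 kb (vertical axis) in the 500 kb left of each window, the 160 kb window and the 500 kb right of it, 1 bar per list, with the number of peaks above each bar. The alpha window stands at 5.62 in HSC beside 2.00 on its left and 5.20 on its right, and the beta window at 1.87 between flanks of 2.00.

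Genome tiles of the same length place both windows. Over 16082 tiles of 160 kb, the median tile held 3 HSC, 2 CMP and 1 ERY peaks. As many peaks as the alpha window or more were found in 21.3% of tiles for HSC, 14.1% for CMP and 15.5% for ERY. For the beta window the shares were 59.9%, 42.6% and 37.6%. The alpha window was thus above the upper quartile of tiles (7, 4 and 2 peaks) in each list, and the beta window was at the median in HSC and 1 peak above it in CMP and ERY. Chromosome 11 is richer in peaks, and among its tiles alone the alpha shares were 32.1%, 22.1% and 23.0%, so the HSC count was less high there.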

How the data were processed

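The authors deposited 1 peak list per enriched library, made from MBD2 pulldown and 36 bp single-end reads per the labels' protocols. Each has 3 columns (chromosome, start, end) and was exported from a genome browser per the file headers. The build is mm9 per the submitters' processing notes. The sources used here do not name the aligner, peak caller, threshold or control.

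The windows came from the rule given for the loci, and the members and lists were chosen with earlier results of these data known. Each peak sharing at least 1 base with a window was a member. Peaks that overlapped or touched were merged over the lists. A ratio of densities carries the exact (Clopper-Pearson) 95% interval of the window's share of peaks, which treats peaks as independent. No test between cell types was run, with 1 library each. Every peak and region of the windows is named, and neighbouring genes by order alone. Protein comparison was planned and not run. Promoters came from RefSeq (GRCm38.p6). Overlaps gave the same counts as bedtools 2.31.1 and were tested on simulated data. Python 3.11.15, numpy 2.4.6, pandas 2.3.3, scipy 1.17.1 and matplotlib 3.10.9 were used. Alternatives covered membership, window and flank size, peak width, overlap and tiles.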

Additional observations from a re-analysis of the deposited data

How the results depend on the processing

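Of 150 values under alternative settings, 129 stayed within 1.5 times (counts and densities) or inside the exact 95% interval (kept shares, density ratios, tile shares) of the value reported. The intervals of kept shares and density ratios are wide. Of the 129, 14 lay inside them and over 1.5 times from the value reported (11 density ratios, 3 kept shares). In 1 of these kept shares, alpha HSC to ERY at 66.7% against 44.4%, the excess over 1.5 times comes from rounding alone. With the wider 50% of each list, beta peaks numbered 1 in CMP and 1 in ERY, and 0% of beta CMP peaks were then kept in ERY. The flanks then held 1.70, 0.900 and 0.500 peaks per 100 kb in HSC, CMP and ERY for alpha and 1.30, 0.30 and 0.40 for beta. These counts fall by construction, since peaks are removed. The alpha window to flank ratio was then 2.21 in HSC, 4.86 in CMP and 5.0 in ERY. Of beta HSC peaks 33.3% were then kept in CMP, a share that also falls by construction. The cause of the ratios was not tested. With flanks of 250 kb the beta ratio in ERY was 6.25, from 2 window peaks and 0.200 flank peaks per 100 kb. The left alpha flank alone held 2.00 (HSC) and 1.20 (CMP) peaks per 100 kb, and the right beta flank alone 0.40 in ERY. Flanks of 250 kb held 1.20 (alpha) and 0.200 (beta) in ERY. Among tiles of the same chromosome, the shares with as many peaks or more were 32.1%, 22.1% and 23.0% for alpha and 57.9%, 41.2% and 35.7% for beta, in HSC, CMP and ERY. These moves count because 16082 tiles give narrow intervals. No paired analysis was possible because each cell type has 1 library. With no read depth or peak scores, stricter peak thresholds could not be tried.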

Other observations

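The flanks of the 2 loci were also compared for how far the later lists lay inside the HSC list. Every CMP and ERY peak of the beta flanks (17 and 7) overlapped an HSC peak. In the alpha flanks 18 of 20 CMP peaks and 16 of 19 ERY peaks did, against 96.5% and 95.3% over the whole lists. Exact 95% intervals ran from 68.3 to 98.8% and from 60.4 to 96.6% for alpha. For beta they ran from 80.5 to 100% and from 59.0 to 100%. Each held the share of the whole list, so no difference between the loci is shown. The 3 ERY peaks without an HSC peak lay in the left alpha flank, in merged regions at chr11:31674460-31675180, chr11:31676974-31677374 and chr11:31693542-31694180. They were 717, 401 and 639 bp wide. The first overlapped a CMP peak. A further ERY peak nearby, of 946 bp, overlapped an HSC peak of 671 bp and no CMP peak. These regions were singled out after their values were seen, and no test between the loci was made.

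The right alpha flank held 5 neighbouring regions with both an HSC and an ERY peak, singled out after their values were seen. At chr11:32500410-32501385 the bases under HSC, CMP and ERY peaks were 858, 922 and 770. At chr11:32503169-32504810 the HSC, CMP and ERY peaks covered 1064, 1642 and 1399 bp. At chr11:32512245-32513769 they covered 1487, 1400 and 885 bp, and at chr11:32514224-32515259 they covered 814, 1036 and 982 bp. At chr11:32516965-32517732 HSC covered 768 bp and ERY 583 bp, with no CMP peak. ERY covered more bases than HSC in 2 of these 5 regions. Over all regions with a peak in each list, the median ratio of ERY to HSC was 0.894 and the upper quartile 1.09. Ratios above 1 were thus common there, and 2 of 5 is a description only. The last region, without a CMP peak, is not part of that set.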
